A study of Rattus norvegicus with 8 samples.

Results

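The genes described here carry the nitric oxide and natriuretic peptide signals that raise cyclic GMP (cGMP) in the vessel wall. They are Nos3, Arg2, Gucy1a1, Gucy1b1, Npr1, Npr2, Npr3, Prkg1 and Pde5a, 9 of the 14506 genes that could be tested. They were listed by name for their place in this pathway, with earlier results of these data known. Each was read from the probe set that the array annotation gives to that symbol alone, taking the brightest where a gene had several. All 9 were found.

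Nitric oxide, made in the endothelium from arginine by the product of Nos3, binds soluble guanylyl cyclase in smooth muscle, an enzyme of an alpha and a beta subunit that makes cGMP. The natriuretic peptides raise cGMP through receptors that are themselves guanylyl cyclases. cGMP activates protein kinase G, which relaxes smooth muscle, and phosphodiesterases break it down. In the ductus arteriosus (DA), the fetal vessel between the pulmonary artery and the aorta, nitric oxide is among the signals that keep the vessel open before birth.

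RNA was measured on 8 Affymetrix Rat Gene 1.0 ST arrays in 4 groups of 2 arrays: the DA of Brown-Norway (BN) neonates, the aorta of BN neonates, the DA of Fischer344 (F344) neonates and the aorta of F344 neonates. All animals were born at full term and sampled 1 h after birth, and none is labelled as treated or genetically modified. Each RNA came from pooled tissues, and the labels do not say whether the 2 replicates of a group came from separate animals or litters, so the p-values measure the spread between these samples only, which may be technical. Whole-vessel RNA cannot tell fewer cells of a type apart from less RNA per cell.

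The deposited values are on a log2 scale, on which a difference of 1 is 2-fold. Smooth muscle markers were high on every array (mean of 8 markers between 11.27 and 11.83), and blood endothelial markers were present on every array (mean of 13 markers between 8.51 and 9.10, none of them dim). "Dim" here means that no group mean reached the median of all values, 7.477. The BN DA replicates stood further apart than the other pairs, with an SD of the replicate difference over genes of 0.349, against 0.196 to 0.258. Thymocyte and lymphocyte markers averaged 7.25 on BN DA replicate 1 and 5.84 to 5.96 on the other arrays. On BN DA replicate 2 the cardiac genes Tnnt2 and Actc1 were at 9.24 and 9.71, although 6 of the 8 cardiomyocyte markers were dim in every group. Erythroid markers averaged 7.51 to 9.41 and in all 4 groups replicate 1 was the higher one.

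The alpha-1 and beta-1 subunits of soluble guanylyl cyclase were higher in BN than in F344 in DA. Their promoters are shown because both were called there. Gucy1a1, the alpha-1 subunit (Entrez 497757), measured 10.84 and 11.17 in BN DA, 11.14 on both BN aorta arrays, 10.32 and 10.38 in F344 DA, and 10.55 and 10.63 in F344 aorta. All BN arrays lay above all F344 arrays. Gucy1b1, the beta-1 subunit that holds the haem to which nitric oxide binds (Entrez 25202), measured 10.17 and 10.37 in BN DA, 10.13 and 10.18 in BN aorta, 9.66 and 9.65 in F344 DA, and 9.61 and 9.60 in F344 aorta. Again the lowest BN array was above the highest F344 array, and the BN tissues overlapped. The genes of other subunits were not called between strains. Gucy1a2 averaged 7.41 in BN DA and 7.55 in F344 DA, and 8.12 and 8.17 in the aortas. Gucy1b2, which was dim, averaged 6.53 and 6.27 in DA, and 6.65 and 6.25 in aorta.

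**Figure D1:**
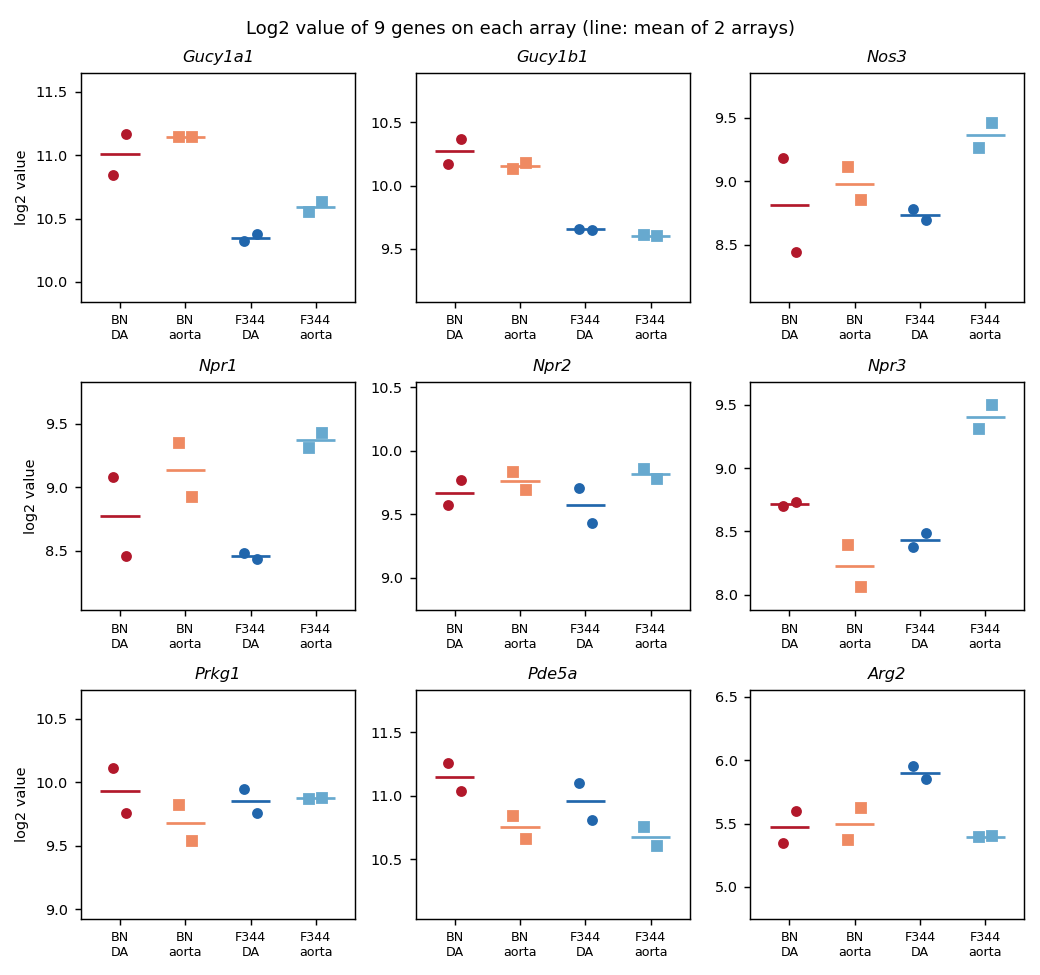
Log2 value (y axis, every panel spans the same range) of the 9 genes on each of the 8 arrays, by group (x axis: BN DA, BN aorta, F344 DA, F344 aorta); points are arrays and lines are means of 2 arrays. The BN arrays of Gucy1a1 and Gucy1b1 all sit above the F344 arrays, while Npr3 is highest in F344 aorta and lowest in BN aorta.

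In DA, Gucy1a1 was 1.58-fold higher in BN than in F344 (log2 difference 0.66 ± 0.14 SE, 95% confidence interval 0.35 to 0.97, limma Benjamini-Hochberg adjusted p = 0.0322). Gucy1b1 was 1.53-fold higher (0.61 ± 0.12 SE, interval 0.34 to 0.89, limma adjusted p = 0.0284). In aorta the differences were of similar size, 0.55 (interval 0.24 to 0.86) for Gucy1a1 and 0.55 (interval 0.27 to 0.82) for Gucy1b1, and neither passed (limma adjusted p = 0.377 and 0.257). The strain effect was not shown to differ between the tissues: the interaction, which is the DA-minus-aorta difference in BN minus that in F344, was 0.11 (interval -0.33 to 0.54) for Gucy1a1 and 0.07 (interval -0.32 to 0.45) for Gucy1b1. Averaged over both tissues, in a contrast chosen after the data were seen, BN exceeded F344 by 0.60 ± 0.10 SE for Gucy1a1 (limma adjusted p = 0.0196) and by 0.58 ± 0.09 SE for Gucy1b1 (limma adjusted p = 0.0138). Each of these averaged calls held in 2 of the 8 fits that left out 1 array, those without a BN DA array.

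The calls in DA rested on few arrays. They were lost for both genes without BN DA replicate 2 (Gucy1a1 0.49, limma adjusted p = 0.0594; Gucy1b1 0.51, limma adjusted p = 0.0502) and held without BN DA replicate 1 (0.82 and 0.71). They were also lost for both without any single F344 array, after cyclic loess, after centring on brighter genes and in a fit with only the 4 DA arrays, where the differences were 0.47 to 0.69. The Gucy1a1 call was also lost without either BN aorta array. Smooth muscle markers, the cell type in which this enzyme acts, had a mean that differed by -0.12 between BN and F344 in DA and by 0.02 in aorta, and endothelial markers one that differed by 0.44 in DA and by -0.08 in aorta. The part of these cell types in the result was not tested.

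Neither subunit passed between the tissues. In F344 the DA-minus-aorta difference was -0.24 (interval -0.55 to 0.07) for Gucy1a1 and 0.05 (interval -0.22 to 0.32) for Gucy1b1, and in BN it was -0.13 (interval -0.44 to 0.18) and 0.12 (interval -0.16 to 0.39). Across the 8 arrays the levels of the subunits had a Pearson r of 0.90, the second highest among all pairs of the 9 genes after Npr1 with Nos3 at 0.916; the arrays fall into 4 groups, so this describes the groups as much as the genes.

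Gucy1a1 and Gucy1b1 lie on chromosome 2 of the rat, on the minus strand, with 1 annotated gene between them in RefSeq (GRCr8). The 250 bases before each annotated start are given 5′ to 3′, with capitals marking each CCAAT box (CCAAT or its complement ATTGG) and each GC box (GGGCGG or its complement CCGCCC). The Gucy1a1 stretch is chr2:169779624-169779873 and the Gucy1b1 stretch is chr2:169696988-169697237. In Gucy1a1 the CCAAT box and the GC box overlap.
Gucy1a1: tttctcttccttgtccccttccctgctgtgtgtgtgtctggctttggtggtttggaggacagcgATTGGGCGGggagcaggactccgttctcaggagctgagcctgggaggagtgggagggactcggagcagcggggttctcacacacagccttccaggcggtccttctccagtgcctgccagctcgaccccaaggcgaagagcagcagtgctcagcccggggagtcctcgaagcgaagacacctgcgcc
Gucy1b1: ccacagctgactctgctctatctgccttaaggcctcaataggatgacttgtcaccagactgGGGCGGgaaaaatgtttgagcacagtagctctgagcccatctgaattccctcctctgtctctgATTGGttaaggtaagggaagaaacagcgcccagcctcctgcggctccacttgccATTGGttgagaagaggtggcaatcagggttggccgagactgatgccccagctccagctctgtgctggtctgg

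Gucy1a1 held 1 CCAAT box and 1 GC box, and Gucy1b1 held 2 CCAAT boxes and 1 GC box. Of 27457 RefSeq promoter windows of 300 bases (250 before the start and 50 after), 37.7% held a CCAAT box on either strand, 34.9% a GC box and 12.7% both, so the combination is not rare. Promoter windows were matched for 7 of the 9 genes. Npr1 also held both boxes, Nos3 and Pde5a held GC boxes only, and Npr3 and Prkg1 held neither. A CArG box, the site of serum response factor in smooth muscle genes, was in 0 of the 7 windows and in 1.64% of all windows.

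Of the 3 natriuretic peptide receptors, Npr1 and Npr3 were called lower in DA than in aorta in F344, and Npr2 was not called in any contrast. Npr3 encodes the clearance receptor, which takes up natriuretic peptides and has no cyclase domain (Entrez 25339). It measured 8.70 and 8.73 in BN DA, 8.39 and 8.06 in BN aorta, 8.38 and 8.49 in F344 DA, and 9.31 and 9.50 in F344 aorta. F344 aorta stood above every other array, and BN aorta was lowest, with arrays that overlapped those of F344 DA.

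In F344, Npr3 fell 1.96-fold in DA relative to aorta (log2 difference -0.97 ± 0.14 SE, interval -1.30 to -0.65, limma adjusted p = 0.00328). In BN the difference ran the other way, 0.49 ± 0.14 SE (interval 0.17 to 0.82), with both DA arrays above both aorta arrays, and did not pass (limma adjusted p = 0.144; 0.51 and 0.48 without BN DA replicates 1 and 2). The interaction was 1.46 ± 0.20 SE (interval 1.00 to 1.93), the 4th smallest p of the 14506 genes, and did not pass after adjustment (limma adjusted p = 0.107); it passed without BN DA replicate 1 (1.48, limma adjusted p = 0.0296) and without BN DA replicate 2 (1.45, limma adjusted p = 0.0399).

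Between strains, Npr3 was 2.27-fold lower in BN aorta than in F344 aorta (log2 difference -1.18 ± 0.14 SE, interval -1.51 to -0.85, limma adjusted p = 0.0188), the 12th smallest p of all genes in that contrast. In DA the strain difference was 0.28 (interval -0.04 to 0.61, limma adjusted p = 0.288). Adventitial fibroblast markers averaged 10.11 to 10.56 over the arrays, with a DA-minus-aorta difference of -0.28 in F344 and -0.16 in BN, and macrophage markers 7.0 to 7.80, with -0.46 in F344 and -0.43 in BN. In F344 DA, 3 of the 8 adventitial markers were called lower (Pdgfra -1.08, Pi16 -1.34 and Scara5 -1.06) and Dpep1 was called higher (1.94), with a median of -0.47 over the list, and 2 of 10 macrophage markers were called lower and 0 higher, with a median of -0.42. In BN DA, Pdgfra (-1.05) and Scara5 (-0.77) were called lower too, while Pi16 (-0.14) and Dpep1 (1.26) were not called. The part of these cell types in the Npr3 values was not tested. The tissue call in F344 held without each of the 8 arrays in turn, with differences from -1.06 to -0.88. The aorta call between strains was lost without any single F344 array or BN aorta array (limma adjusted p up to 0.266) at differences of -1.35 to -1.02.

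Npr1 encodes the receptor for the atrial and B-type peptides (Entrez 24603). It measured 9.08 and 8.46 in BN DA, 9.35 and 8.92 in BN aorta, 8.48 and 8.43 in F344 DA, and 9.31 and 9.43 in F344 aorta. The F344 vessels were clearly apart, whereas the BN vessels overlapped and the BN DA arrays differed from each other by more than the BN group means did. In F344 Npr1 fell 1.89-fold in DA relative to aorta (-0.92 ± 0.21 SE, interval -1.39 to -0.44, limma adjusted p = 0.0198), a call that was lost when any one of the 4 F344 arrays was left out (differences of -0.98 to -0.85, limma adjusted p from 0.0878 to 0.124). In BN the difference was -0.36 (interval -0.84 to 0.11, limma adjusted p = 0.522), and -0.67 without BN DA replicate 1 and -0.05 without replicate 2. The interaction was 0.55 (interval -0.11 to 1.22), so a smaller tissue difference in BN was not shown.

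Npr2, the receptor for C-type natriuretic peptide (Entrez 116564), measured 9.57 and 9.77 in BN DA, 9.83 and 9.69 in BN aorta, 9.71 and 9.43 in F344 DA, and 9.86 and 9.78 in F344 aorta. It varied least between groups of the 3 receptors, from a mean of 9.57 in F344 DA to one of 9.82 in F344 aorta, and neighbouring groups in that order overlapped. None of its differences passed, the furthest from 0 being -0.25 between DA and aorta in F344 (interval -0.57 to 0.07).

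**Figure D2:**
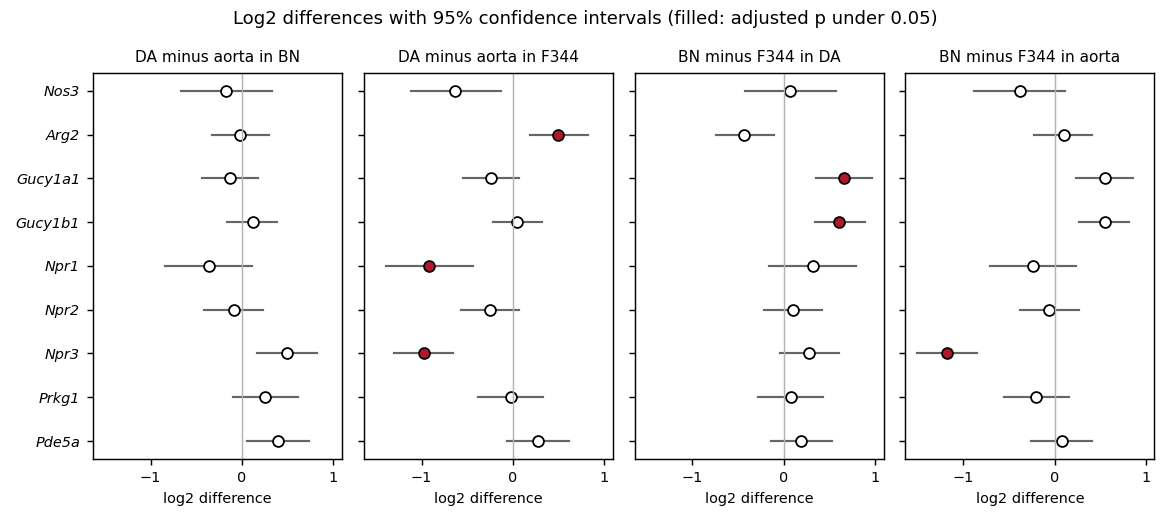
Log2 differences (x axis) of the 9 genes (y axis) in the 4 comparisons, each with its 95% confidence interval; filled points had a limma adjusted p under 0.05. Filled points are Npr1, Npr3 and Arg2 for DA minus aorta in F344, Gucy1a1 and Gucy1b1 for BN minus F344 in DA, and Npr3 for BN minus F344 in aorta.

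The genes that set nitric oxide supply differed less clearly. Nos3, endothelial nitric oxide synthase (Entrez 24600), measured 9.18 and 8.44 in BN DA, 9.11 and 8.85 in BN aorta, 8.78 and 8.69 in F344 DA, and 9.26 and 9.46 in F344 aorta. The F344 DA arrays lay below the F344 aorta arrays, and the BN DA arrays spanned both BN aorta arrays. The DA-minus-aorta difference was -0.63 ± 0.22 SE in F344 (interval -1.12 to -0.13, limma adjusted p = 0.0946), which passed in a fit with only the 4 F344 arrays (limma adjusted p = 0.00815), with array weights (0.0156) and without either BN DA array (0.0101). In BN it was -0.17 (interval -0.67 to 0.33), and -0.54 without BN DA replicate 1 and 0.20 without replicate 2. Between strains Nos3 differed by 0.07 in DA (interval -0.42 to 0.57) and by -0.38 in aorta (interval -0.88 to 0.11).

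Endothelial markers were also lower in F344 DA than in F344 aorta. The mean of 13 markers was 9.10 and 8.87 in BN DA, 8.94 and 8.98 in BN aorta, 8.59 and 8.51 in F344 DA, and 9.09 and 8.98 in F344 aorta. Its DA-minus-aorta difference was -0.49 in F344, with 6 of the 13 markers called lower and 0 higher, and 0.03 in BN. Between strains it differed by 0.44 in DA and by -0.08 in aorta, against 0.07 and -0.38 for Nos3. The part of endothelial content in the Nos3 and Npr1 values was not tested.

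**Figure D3:**
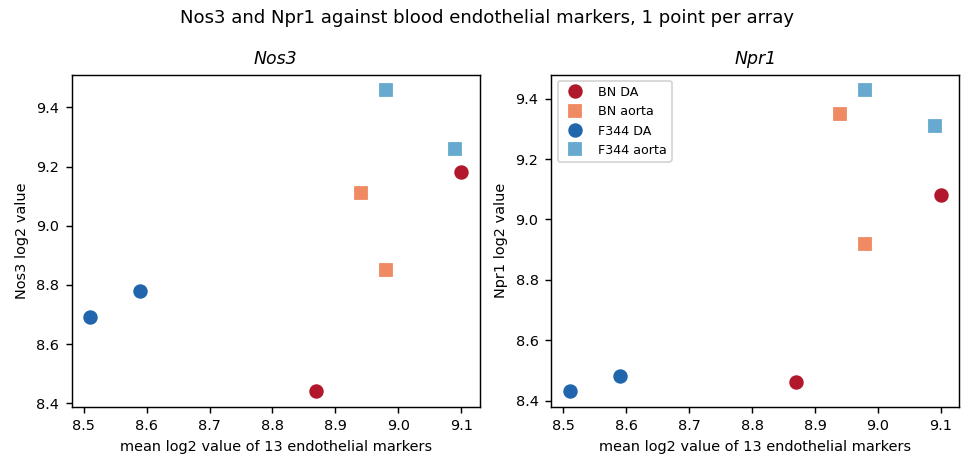
Log2 value of Nos3 (left) and Npr1 (right) on the y axes against the mean log2 value of 13 blood endothelial markers on the x axes, with 1 point per array coloured by group. The F344 DA arrays have the lowest marker means, 8.59 and 8.51, and BN DA replicate 2 is low for both genes at a marker mean of 8.87.

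Arg2, the mitochondrial arginase that competes with nitric oxide synthase for arginine (Entrez 29215), measured 5.35 and 5.60 in BN DA, 5.37 and 5.62 in BN aorta, 5.95 and 5.85 in F344 DA, and 5.39 and 5.40 in F344 aorta. Only F344 DA stood apart, above all other arrays. The difference in F344 was 0.50 ± 0.14 SE (interval 0.19 to 0.82, limma adjusted p = 0.0424). Arg2 was the single dim member, and the 6727 dim genes as a whole had a median DA-minus-aorta difference of 0.16 in F344, against -0.17 for the 7779 others. Its difference shrank to 0.24 when quantile normalization was repeated and to 0.26 with cyclic loess, and the call was lost in both (limma adjusted p = 0.239 and 0.211), with a mean-variance trend (0.0551) and without any one F344 array.

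Downstream of cGMP, Prkg1 and Pde5a did not pass in any of the 5 contrasts. Prkg1, protein kinase G type I (Entrez 54286), measured 10.11 and 9.76 in BN DA, 9.82 and 9.54 in BN aorta, 9.95 and 9.76 in F344 DA, and 9.87 and 9.88 in F344 aorta. Neighbouring groups overlapped, and the tissue difference was 0.25 in BN (interval -0.10 to 0.61) and -0.02 in F344 (interval -0.38 to 0.33). The BN difference was 0.08 without BN DA replicate 1 and 0.43 without replicate 2. Prkg1 was the member with a second probe set, which gave -0.03 in BN and -0.30 ± 0.12 SE in F344 (limma adjusted p = 0.13), so the probe sets of this gene do not give the same difference in F344.

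Pde5a, the phosphodiesterase that breaks down cGMP in smooth muscle (Entrez 171115), measured 11.26 and 11.04 in BN DA, 10.84 and 10.66 in BN aorta, 11.10 and 10.81 in F344 DA, and 10.75 and 10.60 in F344 aorta. DA lay above aorta without overlap in both strains, by 0.40 in BN (interval 0.06 to 0.74, limma adjusted p = 0.263; 0.29 and 0.51 without BN DA replicates 1 and 2) and by 0.28 in F344 (interval -0.06 to 0.62, limma adjusted p = 0.24). Only centring on brighter genes, which raises the F344 tissue differences, brought the F344 difference past the threshold (0.49, limma adjusted p = 0.0396). Smooth muscle markers were also higher in DA, by 0.25 in BN and 0.39 in F344 on average. Des differed most, by 0.60 in BN and 1.38 in F344, and Acta2 by 0.07 and 0.13. In F344 Des and Cnn1 were called higher, and in BN neither was. The part of smooth muscle content in the Pde5a values was not tested.

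Counted over the 9 genes, the F344 vessels differed in 3, with Arg2 higher in DA and Npr1 and Npr3 lower, against 14% of all genes called (8.87% higher and 5.12% lower). The arrays of the F344 vessels did not overlap for 8 of the 9 genes, against 67.4% of all genes, and the members' median difference was -0.24, against -0.04 over all genes. In BN limma called 0 of 9, against 1.81% of all genes, with 2 at an unadjusted p under 0.05 (Npr3 and Pde5a), against 14% of all genes; the arrays did not overlap for 2 of 9, against 37.3%, and the median was -0.02, against 0.

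Between strains, 2 of 9 were called higher in BN DA than in F344 DA, against 4.53% of all genes called and 2.43% called higher. The arrays did not overlap for 4 of 9, against 50.1%, and the members' median was 0.19, against 0. In aorta 1 of 9 was called lower in BN, against 0.159% called and 0.0758% called lower; 5 of 9 did not overlap, against 35.7%, and the median was -0.06, against 0. Averaged over tissues 2 of 9 were called, against 2.65%. The 9 genes were chosen with earlier results of these data known, so counts of them are a description. For the interaction limma called 0 of 9, against 0% of all genes, with 2 of the 9 at an unadjusted p under 0.05 (Npr3 and Arg2), against 9.67%.

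The rest of the pathway was taken from 5 lists of 74 genes, of which 70 were tested and 34 were dim. In F344, 4 were called higher in DA and 5 lower, which is 12.9% and near the 14% of all genes. In BN, 2 were called higher and 0 lower, which is 2.86%, against 1.81% of all genes. Between strains, 3 were called higher and 1 lower in BN DA relative to F344 DA, which is 5.71%, against 4.53%, and 1 was called lower in BN aorta, which is 1.43%, against 0.159%. The interaction called 0, with 8 at an unadjusted p under 0.05, which is 11.4%, against 9.67%. Except for the single gene in aorta, these shares are near those of all genes.

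The natriuretic peptide genes themselves were dim in these vessels. Nppa lay between 5.99 and 6.23, Nppb between 6.04 and 6.46 and Nppc between 6.56 and 7.19 on all 8 arrays, and none was called in any contrast. Of the 9 genes of peptides and processing, 2 fell in F344 DA (22.2%, against 5.12% of all genes called lower) and 0 rose. Corin, the protease that activates pro-atrial natriuretic peptide, measured 9.43 and 10.47 in BN DA, 10.47 and 10.40 in BN aorta, 8.61 and 8.75 in F344 DA, and 10.71 and 10.73 in F344 aorta.

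Corin was thus low in F344 DA and high in both aortas, with the BN DA arrays far apart. It fell 4.11-fold in F344 DA relative to aorta (log2 difference -2.04 ± 0.27 SE, limma adjusted p = 0.00201), a call that held without each array in turn. In BN the difference was -0.48 (interval -1.09 to 0.12), and the interaction was 1.56 ± 0.38 SE (limma adjusted p = 0.284), 2.08 without BN DA replicate 1 (limma adjusted p = 0.00158) and 1.03 without replicate 2 (limma adjusted p = 0.0514). In DA it was 2.41-fold higher in BN than in F344 (1.27 ± 0.27 SE, limma adjusted p = 0.0334), at 1.79 and 0.75 without BN DA replicates 1 and 2, and that call was lost when any one F344 or BN aorta array was left out, when quantile normalization was repeated (limma adjusted p = 0.0569), with cyclic loess (0.0661), after centring on brighter genes (0.0709) and with only the 4 DA arrays (0.0971). Mme, which encodes neprilysin, a protease that degrades natriuretic peptides, fell in F344 DA by 1.18 on the log2 scale (limma adjusted p = 0.0262). The Mme call was lost after centring on brighter genes (-0.97, limma adjusted p = 0.0668). In BN, Mme measured 6.65 and 7.75 in DA, and 7.53 and 7.72 in aorta, so the BN DA arrays were far apart. Among adventitial markers in F344 DA, Pdgfra (-1.08), Pi16 (-1.34) and Scara5 (-1.06) were called lower and Dpep1 (1.94) was called higher. In BN DA, Pdgfra (-1.05) and Scara5 (-0.77) were called lower too. The endothelial marker mean differed by -0.49 in F344 and by 0.03 in BN. BN DA replicate 2, on which Corin was at 10.47, is also the array with Tnnt2 at 9.24 and Actc1 at 9.71. The cardiomyocyte markers Myh6 (6.51), Myh7 (6.44), Tnni3 (6.29), Myl7 (7.02) and Myl2 (5.55) were no higher there than on replicate 1. Ryr2 was at 7.51, against 7.36 on replicate 1. Corin was at 10.40 or above on every aorta array, where Tnnt2 lay between 6.77 and 7.27. The part of these cell types in the Corin and Mme values was not tested.

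**Figure D4:**
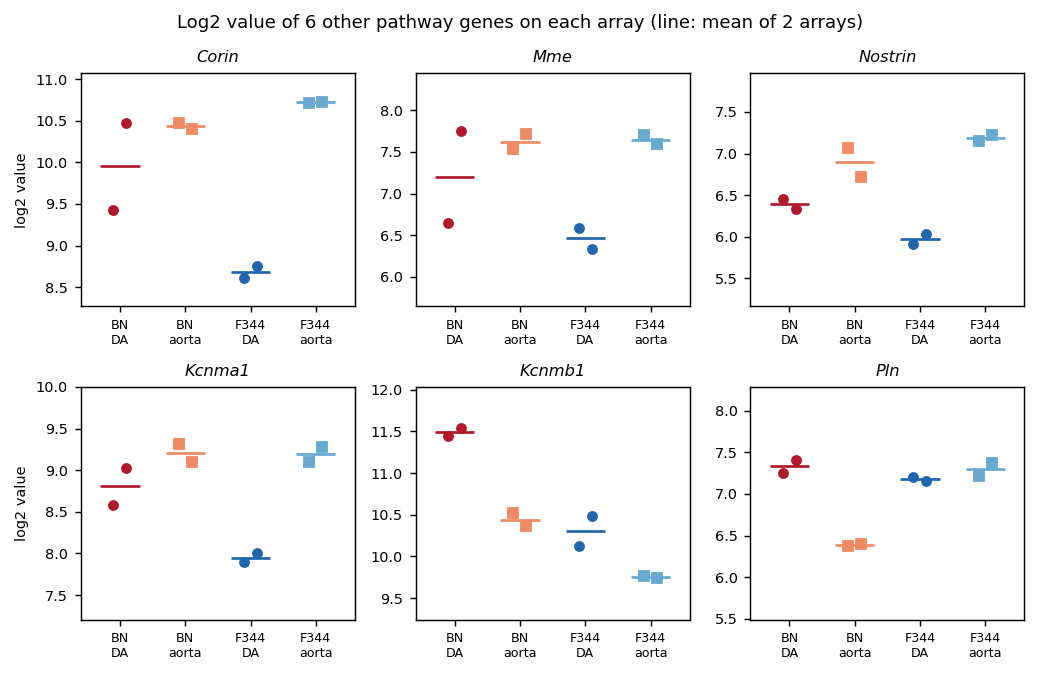
Log2 value (y axis, every panel spans the same range) of Corin, Mme, Nostrin, Kcnma1, Kcnmb1 and Pln on each of the 8 arrays, by group (x axis); points are arrays and lines are means of 2 arrays. Corin is at 8.61 and 8.75 in F344 DA and above 10 on both arrays of each aorta group, and Pln is lowest in BN aorta.

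Of 21 genes of nitric oxide supply and removal, 1 fell in F344 DA (4.76%, near the 5.12% of all genes) and 0 rose. That gene was Nostrin, whose product moves endothelial nitric oxide synthase away from the cell membrane. It measured 6.45 and 6.33 in BN DA, 7.07 and 6.72 in BN aorta, 5.91 and 6.04 in F344 DA, and 7.15 and 7.22 in F344 aorta, so DA was below aorta in both strains and the gene was dim throughout. The log2 difference was -1.21 ± 0.15 SE in F344 (limma adjusted p = 0.0014) and -0.51 ± 0.15 SE in BN (limma adjusted p = 0.132). The endothelial marker mean differed by -0.49 in F344 and by 0.03 in BN, and its part in the Nostrin values was not tested. The neuronal and inducible synthase genes were dim as well, with Nos1 between 6.03 and 6.33 and Nos2 between 6.25 and 6.74 on all arrays.

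Among 17 effectors and targets of cGMP, 2 rose and 2 fell in F344 DA (11.8% each, against 8.87% of all genes higher and 5.12% lower), 2 rose in BN DA (11.8%, against 1.81% called in either direction), and the calls involved channels and a calcium regulator. Kcnmb1 and Kcnma1 encode the beta-1 and the pore-forming subunit of the calcium-activated potassium channel that protein kinase G opens. Kcnmb1 measured 11.44 and 11.54 in BN DA, 10.52 and 10.36 in BN aorta, 10.12 and 10.49 in F344 DA, and 9.77 and 9.74 in F344 aorta. DA was above aorta in each strain, and it rose by 1.05 in BN (limma adjusted p = 0.0125) and by 0.55 in F344 (limma adjusted p = 0.0377).

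The pore subunit did not follow it. Kcnma1 measured 8.58 and 9.03 in BN DA, 9.31 and 9.10 in BN aorta, 7.90 and 8.0 in F344 DA, and 9.10 and 9.28 in F344 aorta. In F344 it fell by 1.24 in DA relative to aorta (limma adjusted p = 0.00215), whereas in BN the difference was -0.40 ± 0.17 SE (limma adjusted p = 0.316). In DA both were higher in BN than in F344, Kcnmb1 by 1.18 (limma adjusted p = 0.00818) and Kcnma1 by 0.85 (limma adjusted p = 0.0276), as were both cyclase subunits. The Kcnma1 difference was 1.08 without BN DA replicate 1 and 0.63 without replicate 2, and its call was lost with cyclic loess (limma adjusted p = 0.0571), after centring on brighter genes (0.0691) and with only the 4 DA arrays (0.0756). In aorta, where neither gene was called between strains, the Kcnmb1 means were 10.44 in BN and 9.76 in F344. Those of Kcnma1 were 9.21 and 9.19.

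Pln, the calcium pump inhibitor that cyclic nucleotide kinases phosphorylate, measured 7.25 and 7.41 in BN DA, 6.37 and 6.40 in BN aorta, 7.20 and 7.15 in F344 DA, and 7.22 and 7.37 in F344 aorta. BN aorta alone was low: Pln rose by 0.95 in BN DA relative to BN aorta (limma adjusted p = 0.00879) and differed by -0.91 between BN aorta and F344 aorta (limma adjusted p = 0.0277). Pln was dim throughout. Its BN call was lost with only the 4 BN arrays (limma adjusted p = 0.103), and its aorta call after centring on brighter genes (0.0774). Trpc6, a cation channel that protein kinase G inhibits, fell by 0.88 in F344 DA (limma adjusted p = 0.00274), with -0.51 ± 0.12 SE in BN (limma adjusted p = 0.0826). With each of the 8 arrays left out in turn, the F344 calls of Corin, Nostrin, Kcnma1 and Trpc6 held 8 times, that of Mme 4 times and that of Kcnmb1 3 times. The BN calls of Kcnmb1 and Pln held 6 and 7 times, the strain calls in DA of Kcnmb1 and Kcnma1 7 and 4 times, and the strain call of Pln in aorta 2 times.

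The other 3 calls in F344 were of photoreceptor genes, all dim: Gucy2f, a retinal guanylyl cyclase, rose by 0.70, Cnga1, a rod cGMP-gated channel, by 0.79, and Pde6c, a cone phosphodiesterase, by 0.50. Gucy2f was also called lower in BN DA than in F344 DA, with a difference of -0.59. Each of these calls was lost after cyclic loess, in which the differences were 0.58 or less in size. Of the 16 other phosphodiesterase and export genes, Pde6c was the single call, and the 7 other guanylyl cyclases had Gucy2f alone.

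**Figure D5:**
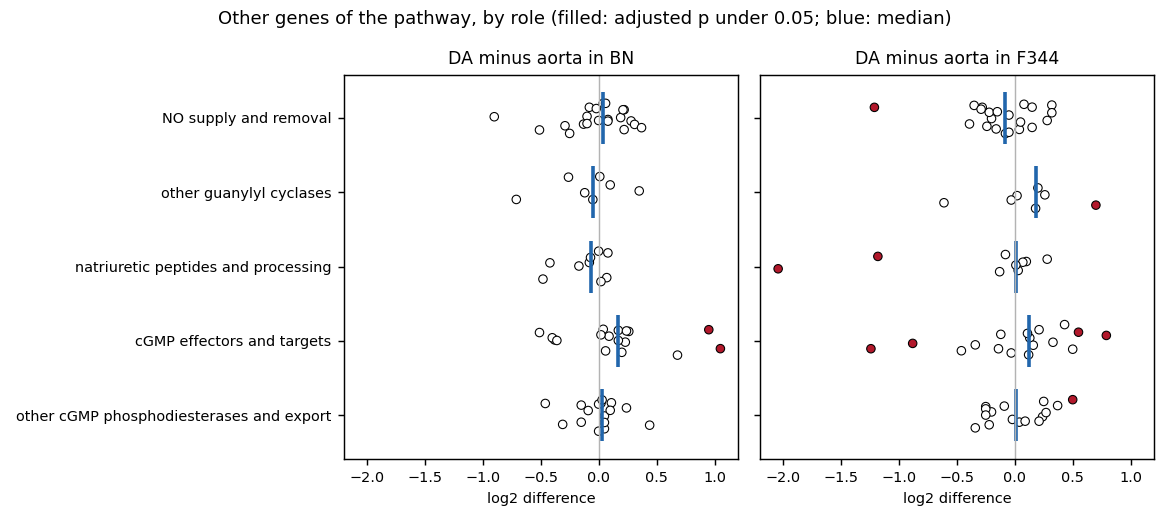
Log2 differences of DA minus aorta (x axes) in BN (left) and F344 (right) for 70 other pathway genes, 1 point per gene, by role (y axis); filled points had a limma adjusted p under 0.05 and blue lines are medians. There are 2 filled points in BN, both above 0, and 9 in F344, of which 4 lie above 0 and 5 below.

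For each member that was called, the genes with the most similar level over the 8 arrays were found among 7253 brighter genes, as a description. Gucy1a1 was followed most closely by Htra4 (Pearson r 0.984), Chpt1 (0.981) and Eid1 (0.978), and Gucy1b1 by Serinc2 (0.979), Slc39a10 (0.974) and Zfp329 (0.971). Npr1 was followed by Ptdss1 (0.989), Atp2a3 (0.985) and Rnf7 (0.985). Npr3 had 1 close neighbour, Tppp (0.981), before Cp (0.926) and Vamp5 (0.925). Arg2 was followed by Otos (0.950), Guca2b (0.948) and Or10ak14b (0.944). The subunits of the cyclase, with r of 0.90 between them, shared none of their 3 closest genes.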

How the data were processed

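Gene expression was measured on 8 Affymetrix Rat Gene 1.0 ST arrays, each hybridised with biotin-labelled cRNA from 150 ng of total RNA. The deposited values lie on a log2 scale (1.073 to 14.15 over all arrays), and RMA (background correction, normalization between arrays and summary of probes) is named in the submitters' processing notes; its settings and the probes' genome build were not given in the sources used here. Values were used as deposited; array medians lay between 6.96 and 7.052. The number of arrays limits the precision.

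Of 29215 probe sets, 15310 had 1 gene symbol in the platform annotation of 2016, 323 had several, and the 13582 without an entry stay unnamed. Where a gene had several probe sets (527 genes), the one with the highest mean was kept, which left 14506 genes. All 9 Entrez identifiers were found in RefSeq (GRCr8), which also gave the promoters. The probe build is not given, so no probe positions are reported.

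Differences were tested in limma 3.58.1 (R 4.3.3) with 1 mean for each of the 4 groups over all 8 arrays, which gives 4 residual degrees of freedom and 5.25 prior ones from eBayes. Tests were two-sided. Calls were made at 0.05 after Benjamini-Hochberg adjustment over all 14506 genes. In simulated data with the spreads of these genes, 100 genes were changed by each size. There 32% of changes of 0.6 and 91% of changes of 1 were recovered for DA minus aorta in F344, and 1% and 46% for the interaction. The simulated F344 contrast called 135 genes, against 2028 in the data, and the simulated interaction called 54, against 0. The adjusted threshold depends on these numbers, so neither the F344 shares nor the interaction shares carry over to the data. Noise was also drawn independently for each array, whereas replicate differences in the data correlated positively between groups.

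All members are named with every array. Of the other pathway lists, genes called in any contrast (at most 6 a list and contrast) and Nppa, Nppb, Nppc, Nos1 and Nos2 are named. Gucy1a2 and Gucy1b2 are named in addition, after their values were seen, as further cyclase subunits. The likeness search names 3 genes a member. The members, the pathway lists and the marker lists were chosen with earlier results of these data known. Alternatives changed the moderation (mean-variance trend, robust), the scaling (a further quantile normalization, cyclic loess, centring on the brighter genes), the features (no dim genes, all probe sets singly or averaged by gene) and the fit (array weights, a block for replicate number, only the 4 arrays compared, and each array left out in turn). The strain difference averaged over tissues was added after the data were seen. Figures were drawn with matplotlib 3.10.9.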

Additional observations from a re-analysis of the deposited data

Results flagged for a closer look

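For 3 of the 79 members and other pathway genes (3.8%), DA lay above aorta without overlap in one strain and below it without overlap in the other. The same holds for 551 of all 14506 genes (3.8%), so the share is no higher among these genes. Npr3 was higher in DA than in aorta in BN and lower in F344, with an interaction of 1.46 (limma adjusted p = 0.107). Pln was higher in DA in BN and lower in F344, with an interaction of 1.06 (limma adjusted p = 0.185), and of its tissue differences only that in BN passed. Cyb5r3, a cytochrome b5 reductase gene named after its values were seen, was higher in DA in BN (11.44 and 11.73, against 11.41 and 11.35 in BN aorta) and lower in F344 (11.53 and 11.43, against 11.71 and 11.55 in F344 aorta), with an interaction of 0.36 (limma adjusted p = 0.599). The interaction was tested for each of the 3 genes and passed for none with all 8 arrays.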

How the results depend on the processing

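With all arrays kept, members called for DA minus aorta numbered 2 to 4 in F344 and 0 in BN, the aorta strain contrast kept 1 and the interaction kept 0. For BN minus F344 in DA, 2 members became 1 after repeated quantile normalization and with array weights, and 0 after cyclic loess, after centring on brighter genes and with only the 4 DA arrays; the averaged strain count of 2 became 1 after centring, and 3 with a mean-variance trend, without dim genes, after repeated quantile normalization, with cyclic loess and with the replicate block, where Npr3 was called too (limma adjusted p = 0.0326 to 0.0431). With 1 array left out, the counts were 1 to 4 for DA minus aorta in F344, 0 to 2 for BN minus F344 in DA, 0 to 1 in aorta, 0 to 3 averaged over tissues and 0 to 1 for the interaction. Such fits have fewer residual degrees of freedom, and a lone array is assumed to vary like the other groups. Over all alternatives, the count over all genes was 646 to 3710 for DA minus aorta in F344 (2028 as reported), 16 to 600 in BN (262), 13 to 1583 for BN minus F344 in DA (657), 0 to 69 in aorta (23) and 0 to 56 for the interaction (0). Of the 70 other pathway genes, the count was 4 to 15 for DA minus aorta in F344 (9), 0 to 6 in BN (2), 0 to 6 for BN minus F344 in DA (4), 0 to 1 in aorta (1) and 0 to 3 for the interaction (0). Centring on brighter genes moved the median of all genes from -0.04 to 0.16 for DA minus aorta in F344, from 0 to -0.15 for BN minus F344 in DA and from 0.02 to -0.14 for the interaction.

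Every difference that changed sign was uncalled, and the cause was not tested. After repeated quantile normalization these were the Gucy1b1 interaction (-0.03), Nos3 (-0.03) and Prkg1 (0) in the DA strain contrast, and Prkg1 between tissues in F344 (0.06). After cyclic loess they were the Gucy1b1 interaction (-0.04), Nos3 (-0.05), Npr2 (-0.01) and Prkg1 (-0.03) in the DA strain contrast, and Prkg1 in F344 (0.11). After centring on brighter genes they were Arg2 between tissues in BN (0.03), the interactions of Gucy1a1 (-0.05), Gucy1b1 (-0.09), Npr2 (0) and Pde5a (-0.04), Nos3 (-0.07), Npr2 (-0.05) and Prkg1 (-0.07) in the DA strain contrast, and Prkg1 in F344 (0.19). With 1 array left out, the DA-minus-aorta range in BN was -0.14 to 0.10 for Arg2, -0.30 to 0.03 for Gucy1a1, -0.54 to 0.20 for Nos3 and -0.19 to 0.01 for Npr2, and that of Prkg1 in F344 was -0.12 to 0.07. The strain range in DA was -0.30 to 0.45 for Nos3, -0.04 to 0.24 for Npr2 and -0.10 to 0.25 for Prkg1, and in aorta -0.03 to 0.22 for Arg2, -0.12 to 0.01 for Npr2 and -0.01 to 0.17 for Pde5a. The interaction range was -0.06 to 0.27 for Gucy1a1, -0.03 to 0.17 for Gucy1b1 and -0.03 to 0.26 for Pde5a.

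The labels do not say what arrays of the same replicate number share. Their replicate differences correlated between groups at 0.0279 to 0.521, all positive. With the replicate number as a block, members called stayed at 3 in F344, 0 in BN, 2 for the DA strain contrast, 1 in aorta and 0 for the interaction, and the averaged strain contrast called 3. The other pathway genes called between tissues in BN numbered 4 with the block, against 2 without.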
